A study of Arabidopsis thaliana with 9 samples.

Results

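The RPD3/HDA1-type histone deacetylases of Arabidopsis thaliana were followed as transcripts in 9 RNA libraries. The 10 genes are HDA2 (AT5G26040), HDA5 (AT5G61060), HDA6 (AT5G63110), HDA7 (AT5G35600), HDA8 (AT1G08460), HDA9 (AT3G44680), HDA14 (AT4G33470), HDA15 (AT3G18520), HDA18 (AT5G61070) and HDA19 (AT4G38130), taken by locus from a deposited table of 29420 genes, and all 10 were present in it. The libraries came from polyA RNA of whole 10-day-old seedlings of the Col ecotype, grown on MS-agar plates at 23 °C with 16 h of light and 8 h of dark. There were 3 libraries each of the hda9-1 mutant, which carries a mutated HDA9, of the pwr-2 mutant, which carries a mutated POWERDRESS (PWR), and of wild type (WT). The labels name the mutants only by these alleles and do not describe the lesions. The design text calls the 3 libraries of a genotype biological replicates, without saying whether they were separate sowings. The p-values thus set a difference between genotypes against the spread between these samples, estimated over all 9 libraries.

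RPD3/HDA1-type enzymes are zinc-dependent deacetylases. They remove acetyl groups from lysines of histone tails and other proteins, and histone deacetylation is generally associated with lower transcription. Plant genomes hold several such genes, and their products work in complexes with SIN3-like scaffolds, MSI-type histone-binding proteins, corepressors and SANT-domain proteins. HDA6, HDA7, HDA9 and HDA19 are usually grouped as class I, close to yeast RPD3, and HDA5, HDA15 and HDA18 as class II, close to yeast HDA1. HDA2, HDA8 and HDA14 are more distant relatives.

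Some of these genes have close relatives in the genome, which bears on what a count of reads can tell. HDA9, on chromosome 3 of assembly TAIR10.1 at chr3:16226519-16230009 on the minus strand, has a pair of short relatives on the same chromosome, HDA10 and HDA17. The coding sequences of HDA9 and HDA17 matched at 98.2% of 453 aligned bases, and those of HDA9 and HDA10 at 98.5% of 392. Exon 12 of HDA9 (chr3:16227072-16227170, minus strand), exon 4 of HDA10 (chr3:16215267-16215365, minus strand) and exon 4 of HDA17 (chr3:16097985-16098083, plus strand) are shown from RefSeq because a read from here can be hard to assign. Each is 99 bases long. Capitals mark, in HDA9, every base at which either copy differs, and in each copy the 2 bases that differ from HDA9.
HDA9 exon 12: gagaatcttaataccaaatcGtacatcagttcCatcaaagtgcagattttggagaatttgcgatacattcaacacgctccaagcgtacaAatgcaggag
HDA10 exon 4: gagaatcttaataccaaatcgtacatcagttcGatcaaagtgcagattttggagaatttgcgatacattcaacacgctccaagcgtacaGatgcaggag
HDA17 exon 4: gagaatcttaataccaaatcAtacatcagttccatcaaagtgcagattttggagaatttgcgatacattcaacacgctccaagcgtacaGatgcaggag

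The class II genes HDA5 and HDA18 lie next to each other on chromosome 5, on the same strand, and are more diverged. Exon 4 of HDA5 (chr5:24569548-24569660, minus strand) and exon 4 of HDA18 (chr5:24573033-24573145, minus strand) differ at 12 of 113 bases, shown in capitals, and over 1150 aligned coding bases the genes matched at 89.7%.
HDA5 exon 4: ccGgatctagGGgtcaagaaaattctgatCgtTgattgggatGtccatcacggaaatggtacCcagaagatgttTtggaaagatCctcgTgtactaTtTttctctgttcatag
HDA18 exon 4: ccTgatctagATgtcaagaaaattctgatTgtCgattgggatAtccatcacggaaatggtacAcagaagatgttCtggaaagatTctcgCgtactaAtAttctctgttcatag

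HDA6 and HDA7 are a further class I pair, on chromosome 5, and are shown because HDA6 was counted at a middle level for the family while HDA7 was near the floor of detection. Their coding sequences matched at 76.4% of 1190 aligned bases. In exon 4 of HDA6 (chr5:25316244-25316334, minus strand) and the coding part of exon 4 of HDA7 (chr5:13770268-13770358, minus strand), 30 of 91 bases differ, in capitals.
HDA6 exon 4: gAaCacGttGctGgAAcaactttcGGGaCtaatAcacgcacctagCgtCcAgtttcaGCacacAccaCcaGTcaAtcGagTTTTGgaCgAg
HDA7 exon 4: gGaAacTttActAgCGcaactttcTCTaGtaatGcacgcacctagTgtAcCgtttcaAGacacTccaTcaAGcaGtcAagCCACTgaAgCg

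To see how far these relatives could exchange reads, every window of 50 bases within an exon was looked up in the whole genome. In HDA9, 244 of 1102 windows (22.1%) also occurred elsewhere. Their matches touched exons of HDA17 (155 matches), HDA10 (69), AT3G44425 (24) and AT3G44410 (7), and 181 touched no annotated exon. A window can match several places, so HDA10 and HDA17 are not the only ones that could share reads with HDA9. All 244 lay in exons 9 to 14, the 6 exons at the 3′ end, where they made up 59.8% of the windows, and none lay in exons 1 to 8. Exon 12, shown above, had the lowest share of these 6 exons, with 19 of 50 windows (38.0%). HDA5 and HDA18 shared 22 windows with each other, 1.18% and 1.17% of theirs, and the other 7 members had no window that occurred elsewhere. HDA10 had 65.3% of its windows in other places and HDA17 had 53.5%. In the table HDA10 held 6 counts and HDA17 held 9 counts over the 9 libraries together, and neither had more than 2 in any library, so no level is given for them. How the counts treated reads with several matching places is not given in the sources used here. The level of HDA9 is uncertain to that extent in every genotype. Of the members, HDA2 also shares 2.40% of its exon bases with a gene on the opposite strand and HDA6 shares 1.50% with a gene on its own strand, and the other 8 overlap no annotated gene.

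**Figure D1:**
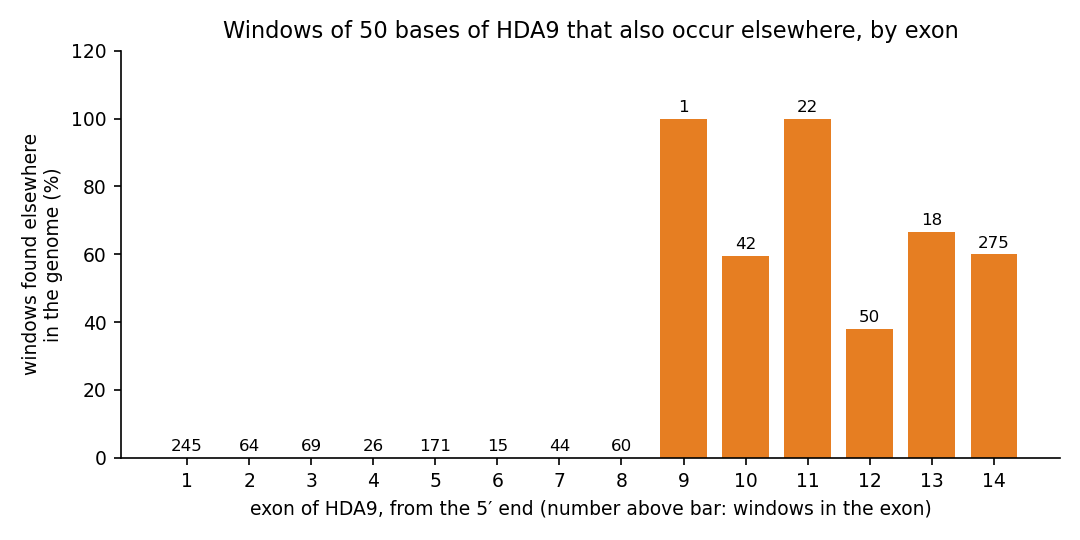
Percentage of the 50-base windows within each exon of HDA9 (vertical axis) that also occur elsewhere in the genome, by exon from the 5′ end (horizontal axis), with the number of windows in the exon above each bar. Exons 1 to 8 stand at 0 and exons 9 to 14 between 38.0% and 100%, with 100% in exons 9 and 11, which hold 1 and 22 windows.

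The total count per library was 6450661 to 11150773, with the lowest in hda9-1 replicate 3. In that library 4 ribosomal RNA genes summed to 265 CPM (counts relative to the TMM-adjusted size of the library), against 34.2 to 104 CPM in the other 8. A floor of 3 counts, the limit that a count of 0 allows, corresponded to 0.259 to 0.492 CPM, and such limits cover counting error only. The leaf genes RBCS1A, LHCB1.3 and LHCA1 were counted in every library and summed to 1576 to 1823 CPM in hda9-1, 1575 to 1665 CPM in pwr-2 and 1459 to 1551 CPM in WT. A list of 5 floral genes, AP1, AP3, PI, AG and SEP3, summed to 31.4 to 41.5 CPM in hda9-1, 36.4 to 45.3 CPM in pwr-2 and 24.3 to 27.7 CPM in WT. SEP3 made up most of that sum and was the 1 floral gene called, at 25.0 ± 1.55 CPM in hda9-1 (edgeR adjusted p 0.00643), 30.2 ± 2.89 CPM in pwr-2 (0.000408) and 18.4 ± 2.26 CPM in WT, while PI averaged 2.72 ± 0.946 CPM in hda9-1, 2.25 ± 0.571 CPM in pwr-2 and 3.06 ± 0.829 CPM in WT. A list of 5 root genes (PLT1, PLT2, COBL9, EXPA7 and CASP1) summed to 2.79 to 3.31 CPM in hda9-1, 2.15 to 3.32 CPM in pwr-2 and 1.54 to 5.02 CPM in WT. The seed genes SESA1, CRA1 and OLEO1 summed to 0.492 to 2.98 CPM in hda9-1, 0.430 to 2.46 CPM in pwr-2 and 1.14 to 3.03 CPM in WT. In each library 2 to 4 of the 5 root genes, 1 to 3 of the 3 seed genes and 0 to 1 of the 5 floral genes had 3 counts or fewer, with SESA1, PLT2 and EXPA7 at or near 0 in most. In these bulk samples, fewer cells of a type and less RNA per cell cannot be told apart, and the part of tissue composition in the results that follow was not tested.

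Of the members, 9 passed the filter on low counts that kept 20171 genes for testing. HDA7, which in Arabidopsis is known for a part in female gametophyte and embryo development, did not pass. It had 1, 5 and 1 counts in the hda9-1 libraries, 1, 4 and 1 in the pwr-2 libraries and 3, 1 and 1 in the WT libraries, 18 in all. These counts lie at or near the floor in every genotype, so no direction can be read from them.

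Levels of different genes were compared per exon length, as RPKM (CPM per 1000 exon bases). The highest gene of a library took only 0.0704% to 0.0901% of its counts, a low share for seedling RNA, and whether duplicate reads were removed or high counts limited is not given in the sources used here. Ratios between genes, and ranks among all genes, are uncertain to that extent. HDA19, a widely studied deacetylase that works with TOPLESS-type corepressors, stood first in WT at 57.0 ± 1.36 RPKM (SD, n = 3, as for all means here). HDA14, which has been described in association with tubulin and in chloroplasts, followed at 51.8 ± 1.40 RPKM in WT. A middle group of 6 genes lay well below this pair. In WT it held HDA5 at 29.8 ± 0.0692 RPKM, HDA15 at 27.2 ± 0.194, HDA6 at 27.2 ± 0.610, HDA2 at 23.5 ± 0.531, HDA8 at 22.0 ± 0.582 and HDA9 at 21.3 ± 0.793. HDA18 followed at 2.33 ± 0.273 RPKM and HDA7 at 0.132 ± 0.0864 RPKM. Neighbours in this WT order whose libraries overlapped were HDA15 and HDA6, and HDA8 and HDA9. All other neighbours were separated in all 3 libraries.

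Seen against all tested genes of the WT libraries, the RPKM of HDA19 was above that of 91.6%, that of HDA9 above 52.4% and that of HDA18 above 7.81%. HDA18 thus stood far below its tandem neighbour: of the summed RPKM of HDA5 and HDA18, HDA18 made up 9.46% ± 1.96 in hda9-1, 9.86% ± 0.619 in pwr-2 and 7.24% ± 0.775 in WT. The order of the family differed little in the mutants, apart from HDA9. In hda9-1 the leading pair overlapped, with HDA14 at 56.2 ± 1.33 and HDA19 at 55.9 ± 3.65 RPKM, and so did all neighbours from HDA5 down to HDA8. HDA9 had 3.94 ± 0.244 RPKM in hda9-1, with no overlap with HDA8 above it at 22.8 ± 1.14 RPKM or with HDA18 below it at 2.92 ± 0.477 RPKM. In pwr-2 HDA19 (56.4 ± 1.27 RPKM) and HDA14 (55.1 ± 2.05 RPKM) overlapped, HDA9 stood at 18.2 ± 1.50 RPKM below HDA2 at 23.3 ± 0.729 RPKM with no overlap, and HDA18 at 3.12 ± 0.367 RPKM.

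**Figure D2:**
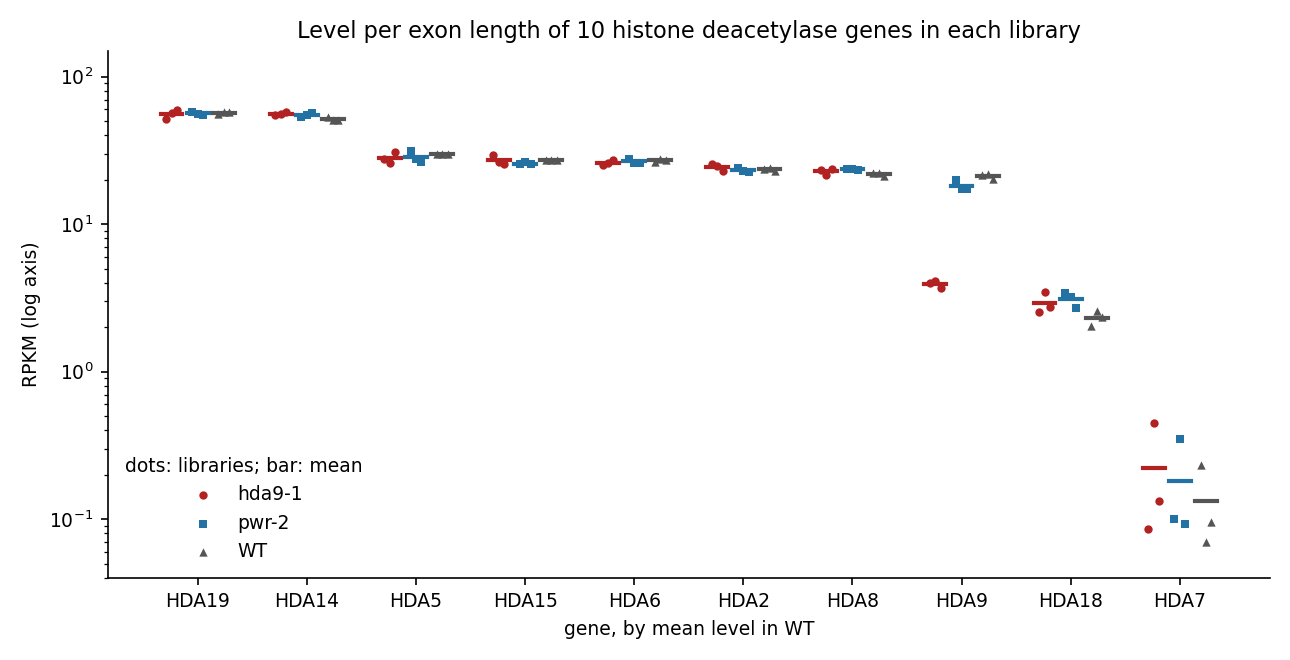
RPKM on a log axis (vertical) of the 10 deacetylase genes (horizontal, in the order of their WT means) in each of 9 libraries, with hda9-1 as circles, pwr-2 as squares, WT as triangles and the group mean as a bar. HDA9 is the gene whose hda9-1 libraries stand apart, at 3.67 to 4.14 RPKM against 17.3 to 22.0 RPKM in pwr-2 and WT, and HDA18 and HDA7 lie below all others in each genotype.

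Most tested members varied little between replicates. Over the 9 that were tested, the median coefficient of variation of the CPM was 6.19% in hda9-1, 3.35% in pwr-2 and 2.39% in WT, and over all tested genes it was 8.25%, 5.75% and 5.63%. The members and all tested genes were not matched for expression level here, so a lower spread of the family cannot be read from these medians. HDA5 was steadiest among the members in WT, with 74.6, 74.9 and 74.6 CPM, whereas its values in hda9-1 were 69.1, 65.3 and 77.2 CPM and in pwr-2 78.7, 68.9 and 66.6 CPM. HDA18 varied most in hda9-1, with a coefficient of 16.3% on 38 to 71 counts per library.

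The comparison of hda9-1 with WT asks how mutation of HDA9 bears on the transcripts of the family. HDA9 itself, known in Arabidopsis for roles in flowering time, leaf senescence and seedling traits, was the member that changed. It had 7.16, 7.40 and 6.56 CPM in hda9-1, against 38.4, 39.3 and 36.5 CPM in WT. All 3 mutant libraries lay far below all 3 WT libraries, and reads were still counted for HDA9 in each, with 68, 67 and 40 counts. The log2 fold change was -2.42 (SE 0.09, 95% interval -2.62 to -2.22), which leaves 0.186 of the WT level (0.162 to 0.214). The edgeR quasi-likelihood test gave an adjusted p of 3.23e-08 over all tested genes, and the call held in all 17 alternative analyses. The table gives 1 count per gene, so where along HDA9 the remaining reads lie was not analysed here. With 22.1% of the HDA9 windows also found elsewhere, how many of these reads come from HDA9 itself was not tested.

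HDA9 was 1 of 9 tested members called in this comparison, at an adjusted p under 0.05, where 34.2% of all tested genes were called. Without HDA9, 0 of 8 members were called by edgeR and by DESeq2, and DESeq2 called 24% of all genes it tested. Of these 8 members, 1 (HDA14) had an unadjusted edgeR p under 0.05, as 44.8% of all tested genes had. The median absolute log2 fold change was 0.06 over the 9 members and 0.18 over all tested genes. For the 7 members other than HDA9 and HDA18, log2 fold changes ran from -0.09 to 0.12, and their 95% intervals stayed between -0.25 and 0.22, that is between 15.7% lower and 16.8% higher than WT. This range is the outer limit over the 7 genes, and the interval of each gene is narrower. The tests and intervals given here did not pair libraries by replicate number. With a replicate block and only hda9-1 and WT in the fit, 47.1% of all genes tested there were called. HDA9 was again the only member called in that fit.

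The class I paralogues HDA6 and HDA19 were not called. HDA6, which silences transposons and ribosomal RNA genes and also acts in flowering time, had 47.0, 48.7 and 50.8 CPM in hda9-1, against 49.5, 51.6 and 51.1 CPM in WT. The groups overlapped, with a log2 fold change of -0.06 (95% interval -0.17 to 0.05) and an adjusted p of 0.404 in edgeR. HDA19 had 104, 114 and 119 CPM in hda9-1, against 111, 115 and 117 CPM in WT. Its hda9-1 values spanned the WT range, and the log2 fold change was -0.03 (95% interval -0.15 to 0.09; edgeR adjusted p 0.714). Other scalings called HDA6 lower at -0.14 with upper-quartile factors (adjusted p 0.0437) and HDA19 lower at -0.15 with loess offsets (adjusted p 0.0105).

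HDA14 and HDA18 had the largest differences among the members that did not pass. HDA14 had 86.3, 86.9 and 90.2 CPM in hda9-1, against 83.4, 79.4 and 79.8 CPM in WT, so that the groups did not overlap. Its log2 fold change was 0.12 (SE 0.05, 95% interval 0.01 to 0.22) and its edgeR adjusted p 0.0883. HDA18, which in Arabidopsis takes part in the patterning of the root epidermis, had 5.79, 7.84 and 6.23 CPM in hda9-1, against 4.64, 5.88 and 5.31 CPM in WT. The lowest hda9-1 library fell within the WT range. The log2 fold change of HDA18 was 0.33, with a 95% interval of -0.06 to 0.72, so that values up to 64.5% above WT lie within it (edgeR adjusted p 0.177). With loess offsets, which adjust for trends with expression level, HDA18 was called at 0.58 (adjusted p 0.0330). HDA9 and HDA14 were the 2 of 9 members whose libraries did not overlap between hda9-1 and WT, against 46.4% of all tested genes.

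HDA2, HDA5, HDA8 and HDA15 were not called. HDA15, which acts with phytochrome-interacting factors on genes of chlorophyll synthesis and photosynthesis, was nearest to WT, at 65.7 ± 4.86 CPM in hda9-1 and 66.1 ± 0.472 CPM in WT, with a log2 fold change of -0.0013 and an interval of -0.12 to 0.12. HDA5, which works with HDA6 in flowering time, had a log2 fold change of -0.09 (95% interval -0.25 to 0.07). HDA2 averaged 34.6 ± 1.79 CPM in hda9-1 and 33.3 ± 0.752 CPM in WT, and HDA8 averaged 54.1 ± 2.70 CPM in hda9-1 and 52.2 ± 1.38 CPM in WT. For these 4 genes the 2 genotypes overlapped.

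PWR encodes a SANT-domain protein that, per the series title, interacts with HDA9, so the comparison of pwr-2 with WT asks whether the transcripts of the family differ when that partner is mutated. HDA9 was again the only member called in the edgeR test, and by a small margin. It had 35.7, 31.2 and 31.0 CPM in pwr-2, against 38.4, 39.3 and 36.5 CPM in WT. The highest pwr-2 library lay just below the lowest WT library. The log2 fold change was -0.23 (SE 0.07, 95% interval -0.38 to -0.07), or 14.5% lower, with an edgeR adjusted p of 0.0326. The call was lost with DESeq2 (adjusted p 0.168), with loess offsets (-0.09, adjusted p 0.343), and without WT replicate 1 (0.102), WT replicate 2 (0.128), pwr-2 replicate 2 (0.127) or pwr-2 replicate 3 (0.114). It held in 11 of 17 alternatives, and the direction was lower than WT in all 17.

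This was 1 of 9 members called, where 31.4% of all tested genes were called. Without HDA9, 0 of 8 members were called by edgeR, and 1 (HDA18) had an unadjusted edgeR p under 0.05, as 43.1% of all tested genes had. DESeq2, which here also tested HDA7, called 0 of 10 members and 20.8% of all genes it tested. HDA18 had 7.75, 7.31 and 6.14 CPM in pwr-2, against 4.64, 5.88 and 5.31 CPM in WT, all 3 above the WT libraries. Its log2 fold change was 0.42 (SE 0.18, 95% interval 0.03 to 0.80) and its edgeR adjusted p 0.0909. With loess offsets HDA18 was called at 0.65 (adjusted p 0.0220) and HDA19 at -0.14 (adjusted p 0.0217), in the directions that setting also gave in hda9-1. The mutants were set against the same WT libraries, so these pairs of values are not independent.

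For the 7 members other than HDA9 and HDA18, log2 fold changes in pwr-2 ran from -0.08 to 0.10, with intervals between -0.22 and 0.21, or 14.3% lower to 15.7% higher. HDA8 was at the upper end, with 56.4, 56.4 and 55.1 CPM in pwr-2, against 53.2, 52.9 and 50.7 CPM in WT, and an edgeR adjusted p of 0.169. HDA15 was at the lower end, with 61.8, 63.6 and 61.8 CPM in pwr-2, against 65.8, 65.7 and 66.6 CPM in WT, and an edgeR adjusted p of 0.283. In both genes the 3 libraries of each genotype were separate, as they were for HDA9 and HDA18. These 4 of 9 members compare with 50.4% of all tested genes whose libraries did not overlap. HDA6 averaged 49.7 ± 1.66 CPM in pwr-2 and 50.7 ± 1.14 CPM in WT, HDA19 averaged 113 ± 2.55 CPM in pwr-2 and 114 ± 2.73 CPM in WT, and both overlapped WT.

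**Figure D3:**
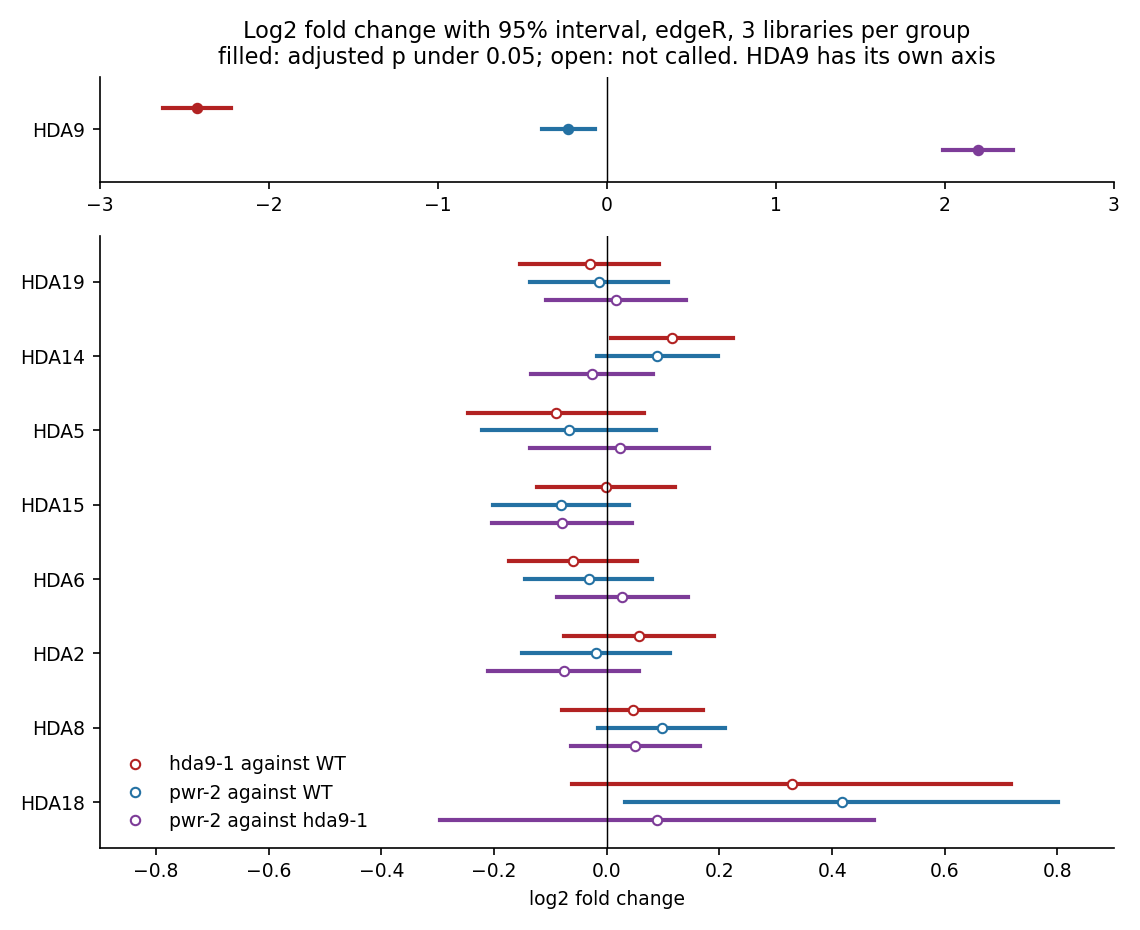
Log2 fold change (horizontal axis) with its 95% interval for the 9 tested deacetylase genes (vertical axis) in hda9-1 against WT, pwr-2 against WT and pwr-2 against hda9-1, with HDA9 on an axis of its own and filled points where the adjusted p was under 0.05. Only HDA9 has filled points, at -2.42, -0.23 and 2.20, and the widest intervals are those of HDA18.

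HDA9, the gene mutated in hda9-1, was also the member that differed between the mutants. It was 1 of 9 members called, where 0.421% of all tested genes were called (0.312% higher and 0.109% lower), and was 4.59-fold higher in pwr-2 than in hda9-1 (log2 fold change 2.20, SE 0.09, edgeR adjusted p 1.88e-07). It was also the 1 member whose pwr-2 and hda9-1 libraries did not overlap, against 17.9% of all tested genes. Without HDA9, 0 of 8 members were called by edgeR and by DESeq2, and DESeq2 called 0.885% of all genes it tested. Of these 8 members, 0 had an unadjusted edgeR p under 0.05, against 13.5% of all tested genes. For HDA18 the difference between the mutants was 0.09, with an interval of -0.30 to 0.47, and for the other 7 members the intervals lay between -0.21 and 0.18.

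HDA9 took a smaller share of the family's transcripts in hda9-1, while the summed level of the other members lay close to that of WT. HDA9 made up 1.59% ± 0.128 of the family's summed RPKM in hda9-1, 6.99% ± 0.433 in pwr-2 and 8.11% ± 0.263 in WT. Within class I it made up 4.58% ± 0.452 in hda9-1, 18.0% ± 0.838 in pwr-2 and 20.2% ± 0.790 in WT. HDA19 and HDA6 took the remainder of class I, HDA19 with 64.8% ± 0.807 in hda9-1, 55.6% ± 0.737 in pwr-2 and 53.9% ± 0.737 in WT. Leaving HDA9 out, class I summed to 82.3 ± 4.71 RPKM in hda9-1, 83.2 ± 2.09 in pwr-2 and 84.3 ± 1.84 in WT, with overlapping libraries. The whole family without HDA9 summed to 244 ± 5.33 RPKM in hda9-1, 243 ± 3.80 in pwr-2 and 241 ± 0.593 in WT. These sums and shares are descriptions and were not tested.

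**Figure D4:**
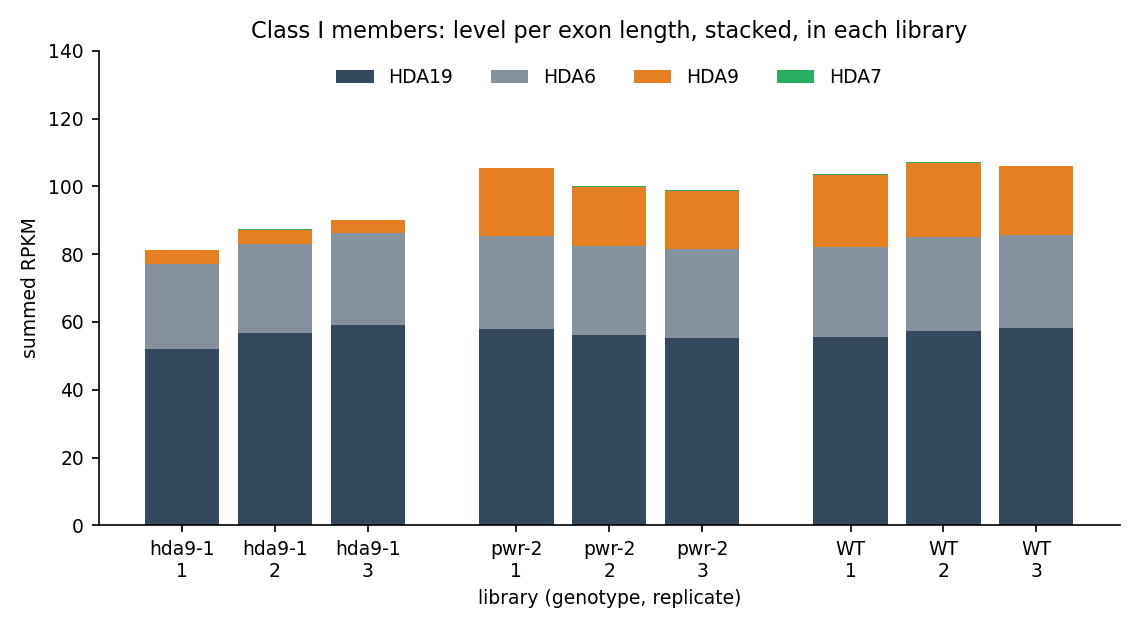
Stacked RPKM (vertical axis, from 0) of the class I genes HDA19, HDA6, HDA9 and HDA7 in each library (horizontal axis, by genotype and replicate). The HDA9 segment is thin in the 3 hda9-1 libraries, 3.67 to 4.14 RPKM, and 17.3 to 22.0 RPKM in the pwr-2 and WT libraries, while HDA7 is barely visible.

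For HDA9, HDA6 and HDA19 the genes with the most similar pattern of log2 CPM over the 9 libraries were looked up among 8727 tested genes that carry a RefSeq symbol. Nearest to HDA9 were HEI10, whose product promotes meiotic crossovers (Pearson r 0.992), the metal transporter gene YSL1 (0.992) and MRD1 (0.990). All 3 share with HDA9 a low level in hda9-1. HEI10 averaged 4.57 ± 1.44 CPM in hda9-1, 55.3 ± 2.95 CPM in pwr-2 and 58.5 ± 2.55 CPM in WT, and MRD1 averaged 0.847 ± 0.298 CPM in hda9-1, 56.3 ± 4.22 CPM in pwr-2 and 59.1 ± 1.37 CPM in WT. HEI10 and MRD1 lie on opposite strands and share 922 exon bases, 40.9% of those of HEI10 and 73.8% of those of MRD1, and whether the counts kept the strands apart is not given in the sources used here. YSL1 averaged 21.2 ± 0.844 CPM in hda9-1, 38.9 ± 3.27 in pwr-2 and 44.0 ± 1.12 in WT.

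Nearest to HDA6 were PNG1 (r 0.975), AGO4 (0.969) and AAT (0.961), and nearest to HDA19 were KEG (0.971), UGP1 (0.968) and RUS6 (0.958). AGO4 encodes an Argonaute of RNA-directed DNA methylation and KEG a ubiquitin ligase of abscisic acid signalling. None of these 6 genes was called in any comparison, so the likeness rests on small deviations between single libraries, such as the low HDA6 and HDA19 values of hda9-1 replicate 1. Points that share a library share its scaling, and with 3 genes drawn from 8727 these coefficients carry no p.

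The partners of the deacetylases were followed as a list of 25 genes, all of which were tested: 6 SIN3-like scaffolds (SNL1 to SNL6), 5 MSI histone-binding proteins, TOPLESS and 4 relatives, the demethylase-type genes FLD, LDL1 and LDL2, the WD-repeat gene HOS15, HDC1, SAP18, AFR1, AFR2 and PWR. In hda9-1, 5 of the 25 fell and 1 rose relative to WT, where 16.6% of all tested genes were called lower and 17.6% higher. In pwr-2, 5 fell and 0 rose, where 15.3% were lower and 16.0% higher. These 5 include PWR, the mutated gene itself, and without PWR 4 of 24 fell in pwr-2. With upper-quartile factors the shares called lower over all genes were 23.9% in hda9-1 and 22.6% in pwr-2. The median log2 fold change of the list was -0.04 in hda9-1 and -0.02 in pwr-2, against 0.00 and -0.01 over all tested genes.

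PWR, the gene mutated in pwr-2, had 43.5, 57.2 and 45.5 CPM in pwr-2, against 145, 144 and 133 CPM in WT (log2 fold change -1.53, SE 0.09, edgeR adjusted p 1.23e-06). It was also the partner that rose in hda9-1, to 188, 198 and 188 CPM, above every WT library (log2 fold change 0.44, SE 0.08, edgeR adjusted p 0.00146). HDA9 was 14.5% lower where PWR was mutated, and PWR 35.8% higher where HDA9 was mutated. The calls for PWR held in all 17 alternatives, and the call for HDA9 in pwr-2 held in 11 of 17.

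SNL6, a SIN3-like scaffold gene, had 45.0, 55.0 and 53.3 CPM in hda9-1 and 52.7, 47.9 and 58.6 CPM in pwr-2, against 65.7, 67.5 and 63.5 CPM in WT. The libraries of both mutants lay below all WT libraries. Over all tested genes, 46.4% in hda9-1 and 50.4% in pwr-2 did not overlap WT, in either direction. Both mutants were set against the same WT libraries, so a fall in both is not independent. Between the mutants 0.421% of all tested genes were called. SNL6 fell by 0.37 on the log2 scale in hda9-1 (edgeR adjusted p 0.00590), a call that held in all 17 alternatives, and by 0.31 in pwr-2 (0.0153), where it held in 15. MSI5, a close relative of the flowering gene MSI4, fell by 0.30 in hda9-1 (0.0150) and by 0.33 in pwr-2 (0.0106), and held in 14 and 16 alternatives. AFR1, a SAP30-type subunit, fell by 0.34 in both mutants (0.0366 in hda9-1, 0.0377 in pwr-2), and held in 10 and 9. MSI3, of which 18.6% of exon bases overlap a gene on the opposite strand, fell by 0.17 in hda9-1 (0.0475) and by 0.22 in pwr-2 (0.0153), and held in 4 and 14. LDL1 fell by 0.18 in hda9-1 (0.0401), held in 9, and had -0.12 in pwr-2 (0.154).

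The partner count moved with single libraries. Without PWR it was 5 in hda9-1, and 3 without WT replicate 1, 2 without WT replicate 2, 2 without WT replicate 3, 3 without hda9-1 replicate 1, 1 without hda9-1 replicate 2, 2 without hda9-1 replicate 3 and 3 without pwr-2 replicate 2. Over all tested genes the share called lower in hda9-1 also moved, between 11.6% without WT replicate 2 and 16.7% without hda9-1 replicate 1. With replicate number as a block and only hda9-1 and WT in the fit the partner count was 8, with MSI2 lower and SAP18 and HOS15 higher as the added calls (HOS15 is named after its values were seen). In that fit 23.4% of all tested genes were called lower and 23.7% higher. In pwr-2 it was 4, and 1 without WT replicate 2 (9.48% of all tested genes lower) and 2 without pwr-2 replicate 2 (8.83% lower). Among partners that did not pass, MSI2 had -0.14 in hda9-1 (edgeR adjusted p 0.0634) and -0.14 in pwr-2 (0.0581), SAP18 had 0.14 in hda9-1 (0.0528) and TPR1 had 0.12 in pwr-2 (0.107). Between the mutants only PWR was called, with -1.97 in pwr-2 against hda9-1 (edgeR adjusted p 2.03e-07).

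**Figure D5:**
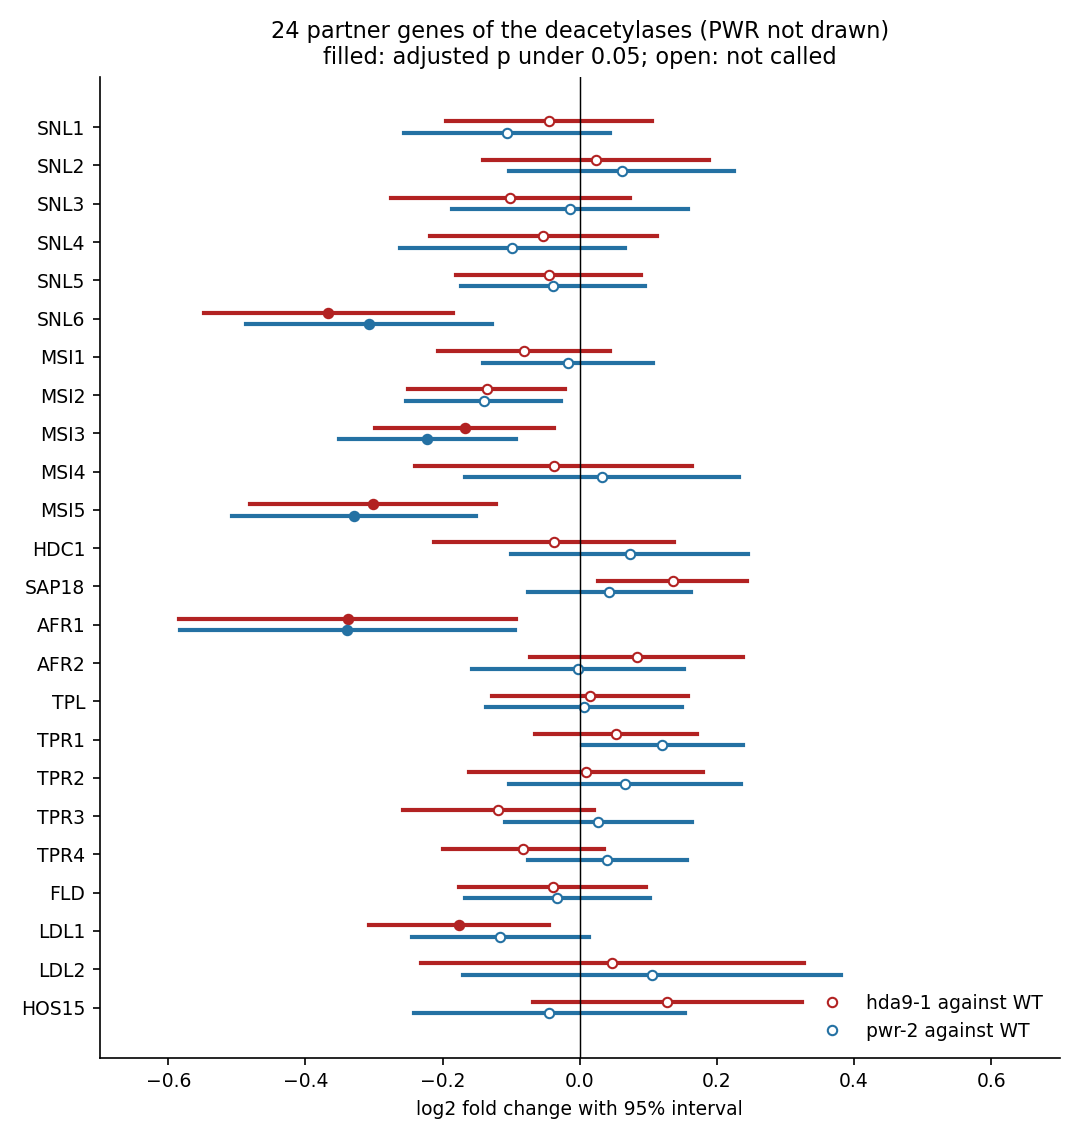
Log2 fold change with its 95% interval (horizontal axis) of 24 partner genes (vertical axis), in hda9-1 against WT and pwr-2 against WT, with filled points where the adjusted p was under 0.05. SNL6, MSI3, MSI5 and AFR1 are filled below 0 in both mutants, LDL1 in hda9-1 alone, and no point above 0 is filled.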

How the data were processed

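The authors deposited raw counts, 1 whole number for each gene and library, unnormalized. The labels' protocols give a stranded dUTP library kit on 1 µg of RNA, and the submitters' processing notes name HISAT2 and TAIR10. The counting tool, its strand setting and its treatment of duplicate or multiply mapped reads are not given in the sources used here.

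Counts were tested with edgeR 4.0.16 (R 4.3.3): TMM factors, filterByExpr, 1 model of genotype over the 9 libraries, quasi-likelihood F test, and Benjamini-Hochberg adjustment over 20171 genes. Steps were tested on simulated data. Intervals are 95%. CPM and RPKM use TMM-adjusted library sizes, RPKM also the union of RefSeq exons of TAIR10.1, which matched 28932 of 29420 identifiers. Members, lists and tests were chosen with earlier results of these data known. Named genes are all members, HDA10, HDA17, PWR, the 8 other partners of smallest adjusted p in either mutant, and, for HDA9, HDA6 and HDA19, the 3 genes of highest Pearson r (log2 CPM, prior count 2). Alternatives were DESeq2 1.42.0, other scalings including limma 3.58.1 loess offsets, no filter, a replicate block, only the groups compared and leaving out each library. Same-numbered hda9-1 and WT libraries deviated together (r 0.36, 0.45 and 0.46 over genes), so these numbers were taken to pair them. The labels do not say what they share. The main model has no replicate term, so its p-values and intervals for hda9-1 against WT leave this pairing out. The fit with a replicate block and only the groups compared was added after the other alternatives.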

Additional observations from a re-analysis of the deposited data

How the results depend on the processing

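HDA9 was called in hda9-1, against WT and against pwr-2, under every alternative run, and the number of members called moved with the scaling. In hda9-1 against WT it was 1 in the main analysis, 2 with upper-quartile factors (HDA6 and HDA9) and 3 with loess offsets (HDA9, HDA18 and HDA19), of 9 tested, where 34.2%, 35.7% and 30.9% of all tested genes were called. In pwr-2 against WT it was 1 in the main analysis, where 31.4% of all tested genes were called. It was 2 with loess offsets (HDA18 and HDA19, without HDA9), where 26.8% were called. With DESeq2 it was 0 of 10 (20.8% of all tested genes), and with a library left out 0 to 1 (19.2% to 37.1%). Partners called without PWR numbered 5 in hda9-1, and 9 with upper-quartile factors, 1 with DESeq2, 3 with only hda9-1 and WT in the fit, 8 with the replicate block added to that fit, and 1 to 5 with a library left out. Of all tested genes, the main analysis called 34.2% in hda9-1 and upper-quartile factors 35.7%. DESeq2 called 24%, the fit of hda9-1 and WT alone 29.3%, and that fit with the block 47.1%. With a library left out the share was 24.3% to 35.1%. In pwr-2 the partners called without PWR numbered 4, and 6 with upper-quartile factors, 2 with DESeq2 and 1 to 5 with a library left out. Of all tested genes, 31.4% were called there in the main analysis and 33.5% with upper-quartile factors. The share was 20.8% with DESeq2 and 19.2% to 37.1% with a library left out. The cause of these shifts was not tested.

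Several uncalled log2 fold changes near 0 changed sign. In hda9-1 against WT, upper-quartile factors gave -0.0208 for HDA2, -0.0324 for HDA8 and -0.0288 for TPR1. Upper-quartile factors also moved the median of all tested genes to -0.08 in each mutant. For HDA15, DESeq2 size factors gave 0.0015, no filter 0.0001 and DESeq2 0.0039, and loess offsets gave -0.0854 for TPR1. In pwr-2 against WT, loess offsets gave 0.0312 for HDA2, -0.001 for HDA14 and -0.0189 for TPR1, and upper-quartile factors gave -0.0303 for SAP18. With a library left out, HDA15 ran from -0.0706 to 0.035 and HDA19 from -0.0655 to 0.0184 in hda9-1 against WT, and HDA2 from -0.0443 to 0.0011 and HDA19 from -0.0326 to 0.0021 in pwr-2 against WT. In pwr-2 against hda9-1, HDA5 ran from -0.0498 to 0.0831, HDA14 from -0.0456 to 0.0009, HDA18 from -0.009 to 0.2399 and HDA19 from -0.0338 to 0.0538.

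The replicate block left the count of members called at 1 in each comparison and changed no other member's call. Same-numbered pwr-2 libraries deviated from WT and hda9-1 libraries with r of -0.24 to -0.01, so there the numbers were not taken to pair samples. HDA7, HDA10 and HDA17 have too few counts for a comparison at this depth, and for HDA10 and HDA17 the part of reads with several matching places was not tested. HDA18 rests on 38 to 71 counts per library.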
